A study of Rattus norvegicus with 2 samples.

Results

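The miR-200 family of the rat consists of rno-miR-200a, rno-miR-200b, rno-miR-200c, rno-miR-141 and rno-miR-429. The members were found on the array by name, as every feature that is not a control and carries one of these 5 names, passenger strands left out. They are 5 of the 350 rat microRNAs (miRNAs) on the array, and all 5 were measured on both arrays. The study compared squamous cell carcinoma of the tongue with normal tongue in male Sprague-Dawley rats, which were 6 to 7 weeks old at the start. Tumours came from an arm of 20 rats given the carcinogen 4NQO at 0.02 g/l, and normal tongue came from an arm of 20 rats given distilled water, with tissue taken when week 36 ended. RNA came from 7 tumours and 7 normal tongues, but only 2 arrays are analysed here, one per label, and it is not stated whether the RNA on an array was that of 1 rat or a pool. With 1 array per group there is no replicate check and no test between groups. Every SD or SE below is the spread of spots of 1 probe within an array, which says nothing of differences between animals.

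miR-200 family members are abundant in epithelial cells. They are known for repressing the transcription factors ZEB1 and ZEB2, which in turn repress both miR-200 gene clusters and E-cadherin, so that the loop separates epithelial from mesenchymal states. The family can be divided in 2 ways. By genomic position, miR-200b, miR-200a and miR-429 form one cluster and miR-200c and miR-141 the other. By seed, the stretch from base 2 to base 8 that pairs with target mRNAs, miR-200b, miR-200c and miR-429 form one group and miR-200a and miR-141 the other.

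The sequences show why the divisions cross and what each probe reads. RefSeq hairpins of the assembly GRCr8 are given 5′ to 3′, with capitals for the stretch complementary to the longer of the 2 array probes of each miRNA. The first cluster lies on the minus strand of chromosome 5, at chr5:171931495-171931589 for miR-200b, chr5:171930717-171930805 for miR-200a and chr5:171929682-171929766 for miR-429. The second lies on the minus strand of chromosome 4, at chr4:159209965-159210033 for miR-200c and chr4:159209525-159209618 for miR-141.
miR-200b: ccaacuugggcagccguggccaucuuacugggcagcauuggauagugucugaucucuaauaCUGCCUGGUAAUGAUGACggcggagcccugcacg
miR-200a: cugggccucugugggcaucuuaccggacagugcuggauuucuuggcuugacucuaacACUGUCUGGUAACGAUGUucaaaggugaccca
miR-429: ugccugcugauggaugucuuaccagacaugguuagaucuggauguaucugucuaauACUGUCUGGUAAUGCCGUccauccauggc
miR-200c: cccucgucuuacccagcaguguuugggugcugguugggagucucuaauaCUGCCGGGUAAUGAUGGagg
miR-141: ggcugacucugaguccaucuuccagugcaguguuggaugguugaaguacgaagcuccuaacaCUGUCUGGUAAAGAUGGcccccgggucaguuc

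The 3 hairpins of the first cluster span 1908 bases on GRCr8, with 689 bases between miR-200b and miR-200a and 950 between miR-200a and miR-429. The 2 hairpins of the second span 509 bases, with 346 between them. The mature forms of miR-200c and miR-141, 1 from each seed group, are given with the seed in capitals.
miR-200c: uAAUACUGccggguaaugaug
miR-141: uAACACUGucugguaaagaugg

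Over the 21 bases they share from the 5′ end, these mature forms differ by 4 substitutions: U4C, C9U, G11U and U17A, each giving the base of miR-200c, the position counted from 1 at the 5′ end, and the base of miR-141. Only U4C lies in the seed. The seed letters of miR-200c, AAUACUG, occur in the hairpins of miR-200b, miR-200c and miR-429, and those of miR-141, AACACUG, occur in the hairpins of miR-200a and miR-141. Searched on the transcribed strand of all 419 rat hairpins in the RefSeq table, each occurs in 4 hairpins, or 0.955%: the members named, with 1 hairpin outside the family for AAUACUG and 2 for AACACUG. The longer probes cover the last 3 or 4 bases of the seed and not the base in which the seeds differ. The arrays therefore tell the members apart by bases after the seed, from the middle of each miRNA toward its 3′ end.

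Each miRNA of the family had 2 probes of 16 to 18 bases, each printed on 10 spots, and the shorter probe lacks 1 base of the longer. Of 100 spots of the family per array, the scanner software marked 2 per array as outliers, and these were left out. No spot was saturated. Of the 10 probes, 8 were detected on both arrays, which here means that more than 50% of the spots lay well above background. The shorter probe of miR-141 was detected on the normal-labelled array and not on the tumour-labelled array, with 7 and 0 of 10 spots well above background. The shorter probe of miR-200a had 6 such spots on the tumour-labelled array and 4 on the normal-labelled array. The values of miR-141 and miR-200a below therefore rest on 1 probe each, and those of miR-200b, miR-200c and miR-429 on 2.

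The 2 arrays differed widely outside the family, in directions that bear on the labels. The skeletal muscle miRNA miR-1 was 13.2-fold higher on the tumour-labelled array, and miR-21, known for high levels in many carcinomas, was 9.60-fold lower there. The arrays are therefore named by their labels, and every direction below is only as sure as the labels are.

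Before any scaling, the members of the first cluster were slightly brighter on the tumour-labelled array, miR-200c was level and miR-141 was dimmer there. For the longer probe of miR-200b, a repressor of ZEB1 and ZEB2, spots ran from 225.7 to 251.6 intensity units with a median of 242.8 on the tumour-labelled array, and from 178.1 to 204.8 with a median of 190.6 on the normal-labelled array. The spots of the 2 arrays did not overlap. In tissue RNA of this kind, a different share of epithelial cells and a different amount of miRNA per cell cannot be told apart. Spots of miR-200a, its neighbour with the other seed, ran from 74.9 to 85.6 around a median of 81.9 on the tumour-labelled array and from 48.4 to 64.6 around 59.0 on the normal-labelled array, again without overlap. miR-429, the third gene of that cluster, had a longer probe at 107.0 ± 7.62 intensity units (SD, n = 9 spots) on the tumour-labelled array and 87.5 ± 6.31 (SD, n = 10 spots) on the normal-labelled array. These overlapped slightly, since the lowest spot of the first was 94.2 and the highest of the second 96.2.

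In the second cluster, the longer probe of miR-200c gave 404.7 ± 20.7 intensity units (SD, n = 10 spots) on the tumour-labelled array and 407.7 ± 25.5 (SD, n = 10 spots) on the normal-labelled array. Those spots overlapped over nearly their whole range, from 378.7 to 433.3 and from 371.2 to 442.7. miR-141, transcribed beside miR-200c, was at 74.5 ± 5.03 (SD, n = 10 spots) on the tumour-labelled array and 94.0 ± 7.46 (SD, n = 10 spots) on the normal-labelled array. Its brightest spot on the tumour-labelled array, 82.9, lay just above its dimmest on the normal-labelled array, 81.4. Intensities of different probes depend on the probe and are not set against each other.

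The same spot stands at the same position on both arrays, so the unscaled signals can also be paired by position. In the cluster of miR-200b, miR-200a and miR-429 the tumour-labelled array was brighter at all 46 positions with unmarked spots of detected probes. In the other cluster it was brighter at 12 of 30, of which all 12 belonged to miR-200c, out of its 20. For miR-141 it was brighter at 0 of 10. Of all 85 miRNAs measured on both arrays, 65 had an unscaled ratio above 0, a background of 76.5%, and of the family 4 of 5 did, so a brighter signal on the tumour-labelled array was common to most miRNAs.

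Values were therefore divided by the 75th percentile of the 140 probes that both arrays detected, which was 525.6 intensity units on the tumour-labelled array and 277.5 on the normal-labelled array, a 1.89-fold difference. After scaling all 5 members were below 0 on the log2 scale (labelled tumour over labelled normal), beside 62.4% of the 85 miRNAs. The lowest member was miR-141, with a scaled level of 0.142 on the tumour-labelled array and 0.339 on the normal-labelled array, relative to the 75th percentile. It was 2.39-fold lower on the tumour-labelled array (log2 ratio -1.26, spot SE 0.05). miR-200c followed, with scaled levels of 0.508 and 0.949, and was 1.87-fold lower (log2 ratio -0.90, spot SE 0.03). The first cluster came last, with miR-200b at 0.258 and 0.394 (log2 ratio -0.61, spot SE 0.03), miR-429 at 0.144 and 0.218 (-0.60, spot SE 0.04) and miR-200a at 0.154 and 0.213 (-0.46, spot SE 0.05).

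**Figure D1:**
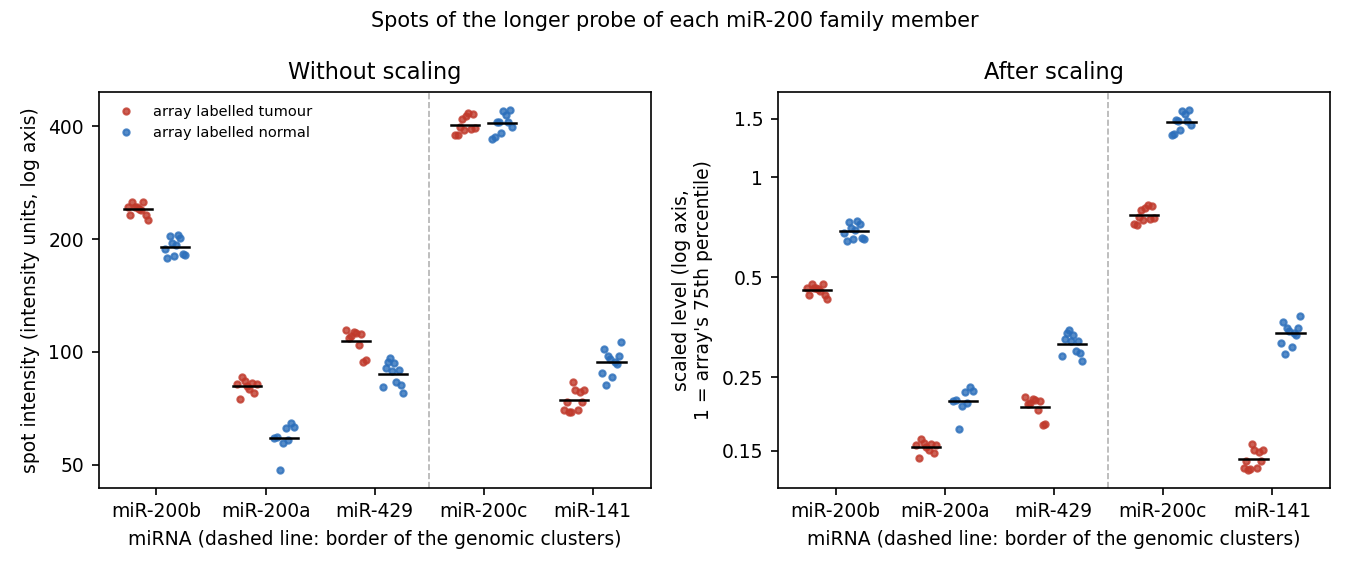
Each point is 1 spot of the longer probe of a miR-200 family member on the tumour-labelled (red) or normal-labelled (blue) array, on log axes, in intensity units without scaling (left) and as scaled level (right); black lines are means over spots. Without scaling miR-200b and miR-200a were higher in every spot on the tumour-labelled array and miR-141 was mostly lower, and after scaling all 5 were lower on it.

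Only miR-141 reached the 2-fold size used to call a miRNA lower, 1 of 5 members, beside a background of 22.4% of the 85 miRNAs. After scaling, all spots of a probe were lower on the tumour-labelled array for 8 of the 8 detected probes of the family, beside 50.7% of the 140 probes. Without scaling, all spots were higher on the tumour-labelled array for 2 of the 8, beside 62.9% of the 140, and all were lower for 0 of the 8, beside 10% of the 140. Where the family stood relative to 0 thus depended on the scaling. In the order of ratios, lowest first, miR-141 was at rank 11 of 85, miR-200c at 21, miR-200b at 36, miR-429 at 38 and miR-200a at 43, which is the median of all miRNAs. If the labels were exchanged every sign would turn, and miR-141 would be at rank 75 and miR-200c at 65, while the differences between members would keep their size. The family's median was -0.61 and that of all 85 was -0.46. Of the other 80 miRNAs, 28 had ratios inside the family's range, from -1.26 to -0.46.

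**Figure D2:**
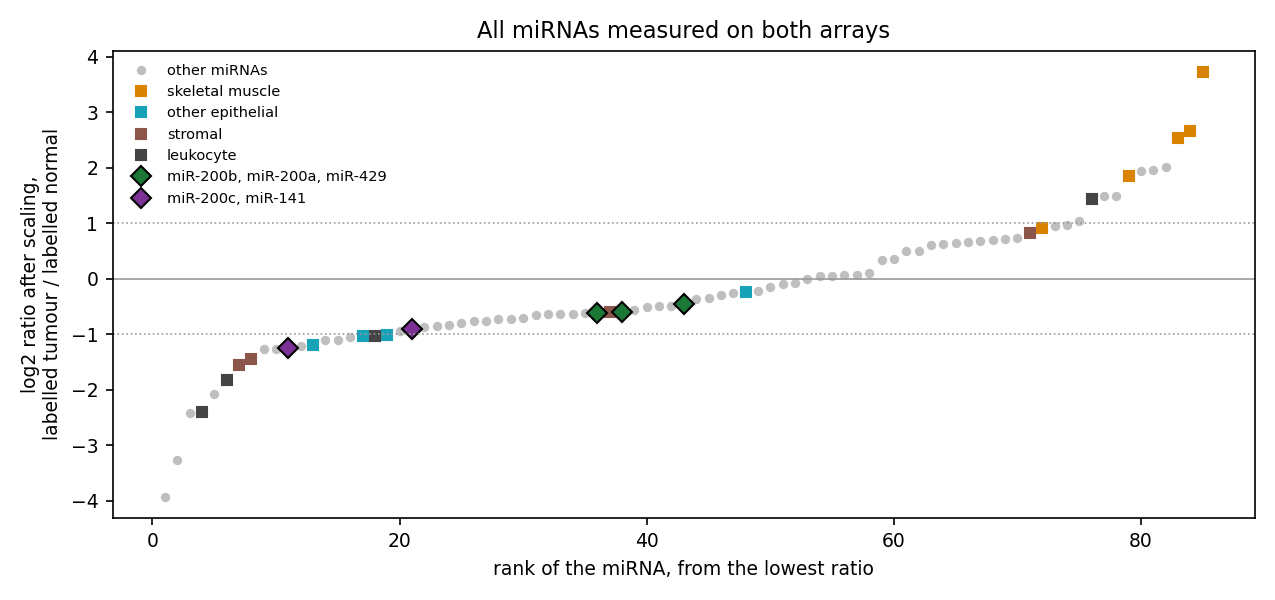
The log2 ratio after scaling of each of the 85 miRNAs measured on both arrays, against its rank from the lowest; diamonds are the members of the 2 miR-200 clusters, squares the members of 4 lists of cell type miRNAs, and dotted lines mark 2-fold. The members lay in the middle and lower part of the order, far from the skeletal muscle miRNAs at its upper end.

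The order within the family does not depend on a common scaling factor, which cancels between members. By genomic cluster the members separated: miR-200b, miR-200a and miR-429 had a mean log2 ratio of -0.56 and ran from -0.61 to -0.46, while miR-200c and miR-141 had a mean of -1.08 and ran from -1.26 to -0.90. The first cluster was thus 0.52 above the second (spot SE 0.03), or 1.44-fold, with a gap of 0.29 between the nearest members, miR-200b and miR-200c. By seed the members did not separate: miR-200b, miR-200c and miR-429 had a mean of -0.70 and ran from -0.90 to -0.60, inside the range of miR-200a and miR-141, which had a mean of -0.86. The difference by seed was 0.16 (spot SE 0.04).

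**Figure D3:**
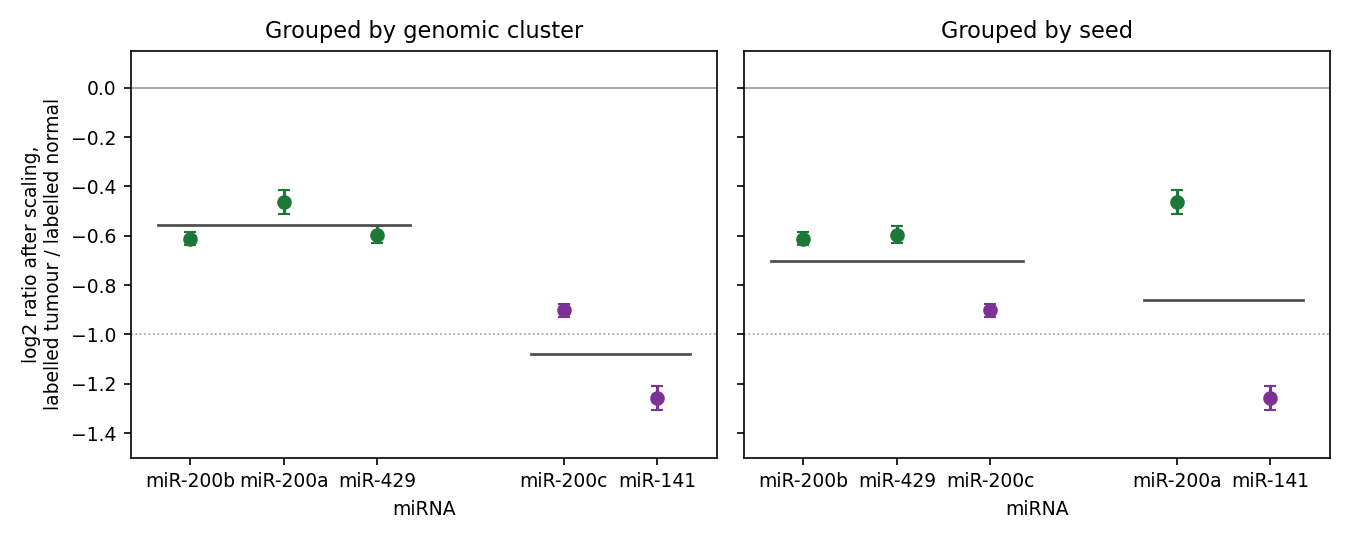
The log2 ratio after scaling of each member, grouped by genomic cluster (left) and by seed (right); error bars are spot SEs, horizontal lines group means, colours the genomic clusters, and the dotted line marks 2-fold lower. The clusters do not overlap, with means of -0.56 and -1.08, whereas miR-200a and miR-141 lie on either side of the other seed group.

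Pairs of members show the same in finer detail. Over the 10 possible pairs the absolute difference in log2 ratio ran from 0.02 to 0.79. The 4 pairs within a cluster had a median difference of 0.14 and the 6 pairs between clusters 0.54. The smallest difference was that of miR-200b and miR-429, which share both cluster and seed and lay within 2 spot SEs of each other. It was the 1 pair of 10 that did. The largest was that of miR-200a and miR-141, which share a seed and lie in different clusters. Within the second cluster miR-200c and miR-141 differed by 0.36 (spot SE 0.05), more than any pair within the first cluster and more than miR-200b and miR-200c, which belong to different clusters, by 0.29.

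Where both probes of a miRNA were detected on both arrays, they agreed more closely than the clusters did. The log2 ratios of the longer and the shorter probe were -0.59 and -0.64 for miR-200b, -0.63 and -0.56 for miR-429 and -0.93 and -0.87 for miR-200c. Probes of each of these miRNAs differed by at most 0.07. The shorter probes of miR-141 and miR-200a, not detected on both arrays, were left out of the values above and lay farther from the longer ones. With any mean signal under the dimmest detected probe of the array raised to it, the shorter probe of miR-200a was at -0.74, beside -0.46 for the longer. That of miR-141 was at -0.97, beside -1.26. Without that floor the shorter probes were at -0.70 and -1.43. Averaged over both probes with the floor, miR-200a was at -0.60, level with miR-429, and miR-141 at -1.12.

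Signal of a member can reach the probe of another where the probes are alike. The most alike pairs of longer probes were those of miR-200b with miR-200c and of miR-200a with miR-141, each with 2 mismatches over 17 aligned bases, shown here 5′ to 3′ with the mismatching aligned bases in capitals.
miR-200b: gTcatcattaccAggcag
miR-200c: CcatcattaccCggcag
miR-200a: AcatcGttaccagacagt
miR-141: CcatcTttaccagacag

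The first base of the miR-200c probe, marked as a mismatch, pairs with the hairpin base just past the end of the mature form given above. Within that form the probes of miR-200b and miR-200c are thus more alike than the count of mismatches shows. Both of these pairs lie across the clusters, and their log2 ratios differed by 0.29 and 0.79. The other pairs of longer probes had 3 to 5 mismatches. The 2 members closest in ratio, miR-200b and miR-429, had 4 mismatches over 17 aligned bases. Among the probes of other miRNAs on the array, the longest stretch shared with a longer probe of the family was 8 bases, in miR-130b, which was detected on neither array. Stretches of 7 bases were shared by miR-1, miR-136, miR-196a* and miR-770, of which miR-1 was measured on both arrays, at a log2 ratio of 3.72. How much signal crosses between probes was not tested.

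Other miRNAs of epithelial cells were below 0 after scaling too. Of 5 on the list, 4 were measured on both arrays, all 4 below 0, beside 62.4% of the 85 miRNAs, and 3 at least 2-fold lower on the tumour-labelled array, beside 22.4%. The list's median was -1.03, beside -0.46 over all miRNAs, and -0.10 without scaling. The keratinocyte miRNA miR-205 was at -1.04 (spot SE 0.02), and miR-96 and miR-183, which share a transcript of sensory and epithelial cells, were at -1.20 (spot SE 0.06) and -1.01 (spot SE 0.09). miR-203, which restrains proliferation in the differentiating epidermis, was at -0.24 (spot SE 0.01), and miR-182 was detected on the normal-labelled array alone. Of the second miR-200 cluster, miR-200c lay just above miR-183, miR-205 and miR-96 and miR-141 just below them, while the first cluster lay nearer to miR-203. The family's median was 0.41 above that of the list, a difference in which a common factor cancels.

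Skeletal muscle miRNAs differed between the arrays far more than the family did. Of the 6 on the list 5 were measured, and their median log2 ratio was 2.53, with 4 at least 2-fold higher on the tumour-labelled array, beside a background of 12.9% of the 85 miRNAs. Summed over the list's probes, their signal was 20352 intensity units on the tumour-labelled array and 1749 on the normal-labelled array. The sum of the other epithelial list was 2988 and 2683 and that of the miR-200 family was 1248 and 1150, each weighted to its brightest probes and without scaling. miR-499, the muscle miRNA of slow fibres and heart, was detected on neither array. With the muscle list left out of the scaling percentile, the family's median was -0.30 in place of -0.61, and miR-141 was at -0.95 in place of -1.26. The part of muscle content in the family's values was not tested.

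Of the stromal list 4 of 5 miRNAs were measured, with a median of -1.02, and 3 were below 0, beside 62.4% of the 85 miRNAs. miR-199a-5p and miR-214, products of one mesenchymal transcript, were at -1.56 and -1.44. miR-199a-3p, the other strand of the miR-199a-5p hairpin, was at -0.60, and miR-143, known from smooth muscle, at 0.82. Its neighbour miR-145 was detected on neither array. Summed over its probes, the stromal signal was 1493 and 1034 intensity units on the arrays labelled tumour and normal. Of the 6 leukocyte miRNAs 5 were on the array under the names searched and 4 were measured, with miR-223 of myeloid cells at -2.41, miR-142-3p at -1.82, miR-146a at -1.04 and the lymphocyte miR-150 at 1.43. Their summed signal without scaling was 470 and 621 intensity units, and their median log2 ratio after scaling was -1.43. Both lists held ratios on both sides of 0, and the family's median was 0.41 above the stromal and 0.82 above the leukocyte median.

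Other miRNAs linked to ZEB factors or to the epithelial-mesenchymal transition went both ways. Of 9 on that list, 5 were measured: miR-34a, a p53 target that represses SNAI1, was at -0.64, close to the first miR-200 cluster. miR-30a, another repressor of SNAI1, was at 1.94, and miR-10b, which TWIST1 induces, was at 1.49, whereas miR-21 was at -3.26 and miR-221 at -2.43. miR-101a was detected on the tumour-labelled array alone, and miR-192, miR-215 and miR-222 on neither array. The list's median was -0.64.

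The miRNAs nearest the family's median of -0.61, by the absolute difference in log2 ratio over these 2 arrays, were miR-199a-3p (-0.60), miR-16 (-0.62), miR-34a (-0.64), miR-20a (-0.64) and miR-19b (-0.65). The farthest of these, miR-19b, was 0.034 from the median. With 2 arrays this likeness is only a similar ratio.

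The order of the clusters held across the ways of processing tried. Of the 16 alternatives, 6 leave the differences between members unchanged, since they apply a common factor or touch no member, and the other 10 gave 9 distinct sets of differences. In each of these 10 the lowest of miR-200b, miR-200a and miR-429 stayed above the higher of miR-200c and miR-141, and miR-141 had the lowest ratio of the 5. The cluster difference ran from 0.29 to 0.63 and exceeded the difference by seed, which ran from 0.09 to 0.23, under each setting. The sign of the ratios was less stable: without scaling, miR-200b was at 0.31, miR-200a at 0.46, miR-429 at 0.33, miR-200c at 0.02 and miR-141 at -0.34. Of the 5, miR-141 alone was below 0 in all 16 alternatives, and it was at least 2-fold lower in 12 of them.

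**Figure D4:**
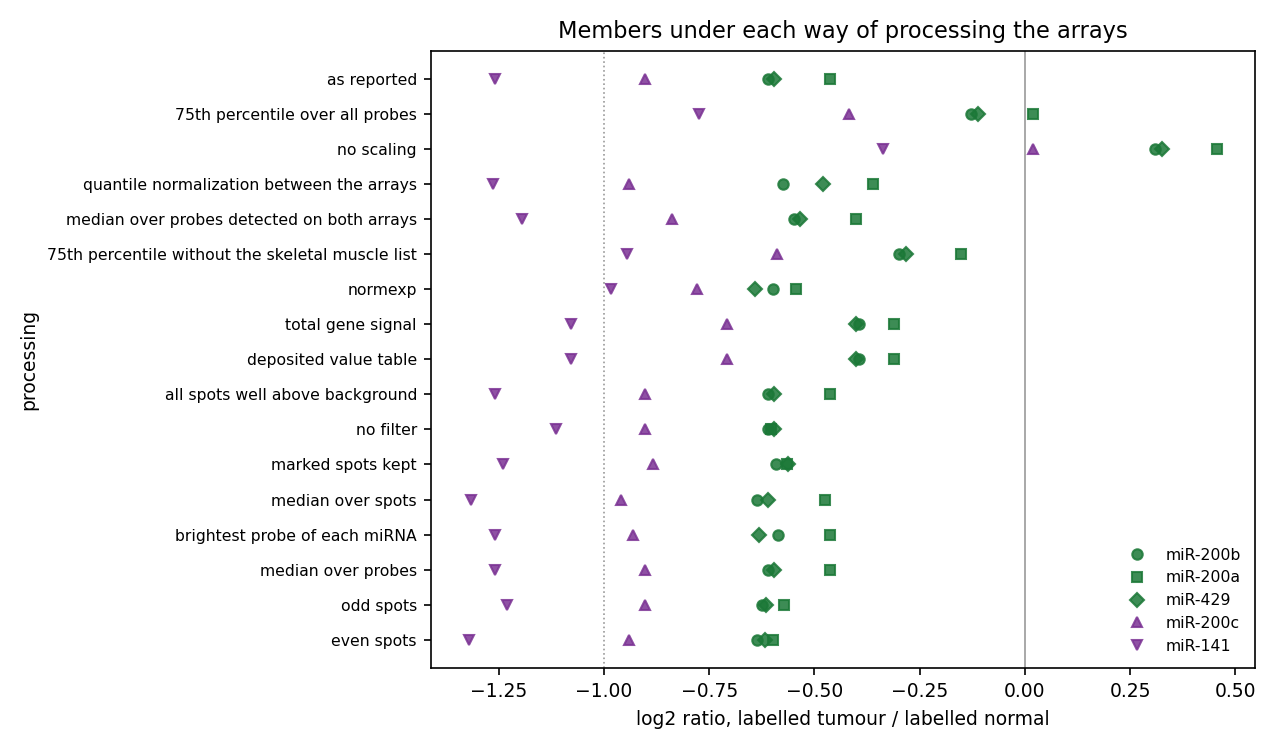
The log2 ratio of each member (symbols; green for miR-200b, miR-200a and miR-429, purple for miR-200c and miR-141) under the processing reported and 16 alternatives, 1 per line, with lines at 0 (solid) and at 2-fold lower (dotted). The symbols shift together with the scaling, from -1.26 to -0.46 as reported and from -0.34 to 0.46 without scaling, and purple lies left of green on every line.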

How the data were processed

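Cy3-labelled RNA was hybridised to 1-colour Agilent miRNA arrays, 1 per group. Per the file headers, Agilent Feature Extraction 10.5.1.1 produced the deposited spot intensity values by background subtraction and spatial detrending, with no step that sets one array against the other. The value table, used as an alternative, gives the software's total gene intensity on a linear scale, floored at 1, with medians of 1.70 (labelled tumour) and 1.32 (labelled normal) as deposited. Pooling of RNA is not stated.

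Unmarked spots of a probe were averaged, probe means were divided by the array's 75th percentile of probes detected on both arrays, floored at the lowest detected probe and log2-transformed, and probes of a miRNA detected on both arrays were averaged. Calls are a rule of size, 2-fold, not a test. The steps from spots to unscaled ratios were tested on simulated data. Scaling and the removal of marked spots were not part of that test. Python 3.11.15, limma 3.58.1 (normexp, offset 50) and matplotlib 3.10.9 were used.

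Named were the members, the lists, the 5 miRNAs nearest the family's median and those with the most alike probes, compared by probe because mature sequences of 2 members only were matched in RefSeq; hairpins matched for all 5. The lists rest on general knowledge. The members and lists were chosen with earlier results of these data known. Coordinates are of GRCr8, whereas the array design names rn4.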

Additional observations from a re-analysis of the deposited data

How the results depend on the processing

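The family's median log2 ratio of -0.61 kept its sign in 15 of 16 alternatives. It became -0.13 with the 75th percentile over all probes, 0.31 without scaling and -0.30 with the skeletal muscle list left out of the percentile. The family's median was -0.40 with the total gene signal and with the deposited value table, which gave the same ratios. There the median of all miRNAs, 104 in these settings, moved by 0.21, and the cause was not tested. The count of members at least 2-fold lower became 0 from 1 with the percentile over all probes, without scaling, without the muscle list and with normexp. The cluster difference of 0.52 became 0.29 with normexp, for which the cause was not tested. It moved by less than the spot SD in the other 15, of which 6 cannot change it. The seed group difference did so in all 16. Over all 85 miRNAs, those at least 2-fold lower numbered 19 as reported, 7 with the percentile over all probes, 5 without scaling, 8 without the muscle list and 8 with normexp; those at least 2-fold higher numbered 11, and 23, 28, 18 and 3. The median of all miRNAs moved by 0.92 without scaling, 0.48 with the percentile over all probes and 0.31 without the muscle list. With no filter on dim probes it moved by -0.45 over 350 miRNAs, to -0.92. Probes under the dimmest detected level of an array are raised to it, so this median is the scaled ratio of those 2 levels. The family's median, 0.15 below that of all miRNAs as reported, was 0.31 above it for that reason, which says nothing of the family. No paired analysis was possible because each group has 1 array. The number of arrays limits the precision: negative control spots averaged 1.21 and 2.64 intensity units on the tumour- and normal-labelled arrays, against 18.3 and 18.2 for the dimmest detected probe, so the shorter probes of miR-141 and miR-200a lay at the limit.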

Other observations

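Between these arrays, miRNAs from neighbouring genes differed less in ratio than other pairs of miRNAs, inside and outside the miR-200 family. Of the miRNAs measured on both arrays, 35 pairs outside the family have genes within 10000 bases of each other on GRCr8, and their absolute difference in log2 ratio had a median of 0.27, with quartiles of 0.12 and 0.45. The other 3525 pairs, not counting pairs of 2 members, had a median of 1.11. Strands of the same hairpin were not counted as neighbours and are among these. They are miR-199a-5p (-1.56) with miR-199a-3p (-0.60) and miR-140 (-0.73) with miR-140* (-1.11). The 4 neighbouring pairs of the family had a median of 0.14 and the 6 pairs between its clusters 0.54. The pairs share miRNAs and arrays and many have similar probes, so this is a description without a test.

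Neighbouring genes did not always match. miR-133b and miR-206 of skeletal muscle differed by 1.75, miR-29b and miR-29c by 1.36 and miR-1 and miR-133a by 1.19, whereas miR-19b and miR-20a differed by 0.0046. miR-200c and miR-141, at 0.36, lay inside the range of these pairs. The pairs were named after their values were seen. miR-29b neighbours both miR-29c and miR-29a, which are not neighbours of each other, and it differed from miR-29a by 0.07. A miRNA with genes in more than 1 place has 1 ratio on these arrays, which is not that of 1 gene.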
